A study of Danio rerio with 16 samples.

Results

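The aryl hydrocarbon receptor (AhR) pathway was followed through 10 zebrafish genes taken by name as parts of the pathway. They were the receptors ahr1a, ahr1b and ahr2, the dimerization partners arnt and arnt2, the repressors ahrra and ahrrb, and the target genes cyp1a, cyp1b1 and tiparp. A row was matched for 9 of the 10 genes among the 14792 RefSeq mRNA accessions of each bulk-seq table, 1 row per gene, and for 2 of them, ahr1b and tiparp, among the 6847 accessions of the pseudo bulk-seq table. No row was matched to ahr1a through the annotation used, which left some accessions unnamed, and ahr1a was not analysed here.

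The AhR is a ligand-activated transcription factor of the bHLH-PAS family, held in the cytosol by a chaperone complex until a ligand such as the dioxin TCDD binds it. It then enters the nucleus, pairs with an Arnt protein and binds xenobiotic response elements near genes such as cyp1a, and the AhR repressor proteins, themselves induced, compete with it for Arnt and DNA. Zebrafish have duplicated receptors, of which Ahr2 is the one known for mediating the developmental toxicity of TCDD.

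The 16 libraries came from testes of adult male AB zebrafish that had been placed in treated water for 1 h at 3 and again at 7 weeks post-fertilization. The water held TCDD at 50 pg/ml with DMSO at 0.1% for TCDD-exposed fish and DMSO alone, also at 0.1%, for control fish, and the labels of control samples, which carry the dose as well, were read by the study's methods. Both testes of 1.5-year-old fish were dissociated with collagenase and freed of dead cells, and part of each suspension went to bulk-seq (TB for TCDD-exposed fish, n = 2, and CB for control fish, n = 3) and part to droplet-based scRNA-seq with about 5000 cells loaded, whose counts were summed over cells as pseudo bulk-seq (TP for TCDD-exposed fish, n = 2, and CP for control fish, n = 3). In 1-year-old control fish, 1 testis was dissociated and freed of dead cells in the same way (CD, n = 3). The contralateral testis stayed intact and was kept in the storage reagent RNALater (CI, n = 3). Tissue was therefore taken long after the exposure, and no sample was taken during it. Between CD and CI, dissociation, removal of dead cells and storage differ together and cannot be told apart. The columns of TB and CB show the group but not the sample, so their libraries are numbered by column name and are not tied to TP or CP libraries of the same number. Nothing in the labels states how many fish made up a replicate of TB, CB, TP or CP. The study's methods describe 3 independent exposure experiments in successive blocks, and the labels do not give the block of a library. The p-values therefore measure the spread between these samples, which can include differences between blocks.

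Total counts were 4828801 to 36172885 in TB and CB, 3490409 to 9987998 in TP and CP, and 7968350 to 29144951 in CD and CI. TB library 2 was the shallowest bulk library, and its median correlation of log2 levels with the libraries of its table was 0.916, against 0.961 to 0.963 for the others. CI replicate 2 likewise stood apart, at 0.926, against 0.958 to 0.970 for the others. The germ cell gene ddx4, an RNA helicase, lay at 852 to 1677 CPM (counts scaled to library size) in the 11 bulk libraries, as a check of the labelled tissue. The Sertoli cell gene gsdf lay at 1173 to 1807 CPM in CI libraries and at 8.15 to 43.7 CPM in the bulk libraries of dissociated testes. Levels below are CPM after TMM scaling within each table, fold changes come from edgeR's quasi-likelihood test, and adjusted p is by the Benjamini-Hochberg method over all rows tested in a comparison.

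None of the 8 genes tested in TB over CB was called at an adjusted p under 0.05, where the share called among all 12939 rows was 0%. DESeq2 gave an adjusted p for 5 of the 8 and called none of them, and none of the 8 had an unadjusted p under 0.05 in edgeR, a level that 8.88% of all rows reached. The adjusted p of the 8 genes ran between 0.598 and 0.979, their median log2 fold change was -0.25, and the median of all rows was -0.05. Two-sided 95% intervals reached 0.72 to 2.55 log2 units to either side of the fold change, and that of cyp1a ran between 0.445-fold and 2.09-fold. In CD over CI, likewise, none of the 9 genes was called by edgeR or DESeq2, where 2.22% of 12773 rows were called by edgeR, and 1 gene had an unadjusted p under 0.05, against 17.3% of all rows. Their median log2 fold change was -0.10, against 0.01 over all rows. The pseudo bulk-seq comparison, TP over CP, called ahr1b lower and did not call tiparp, where 28.1% of 6847 rows were called and 19.4% were called lower.

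**Figure D1:**
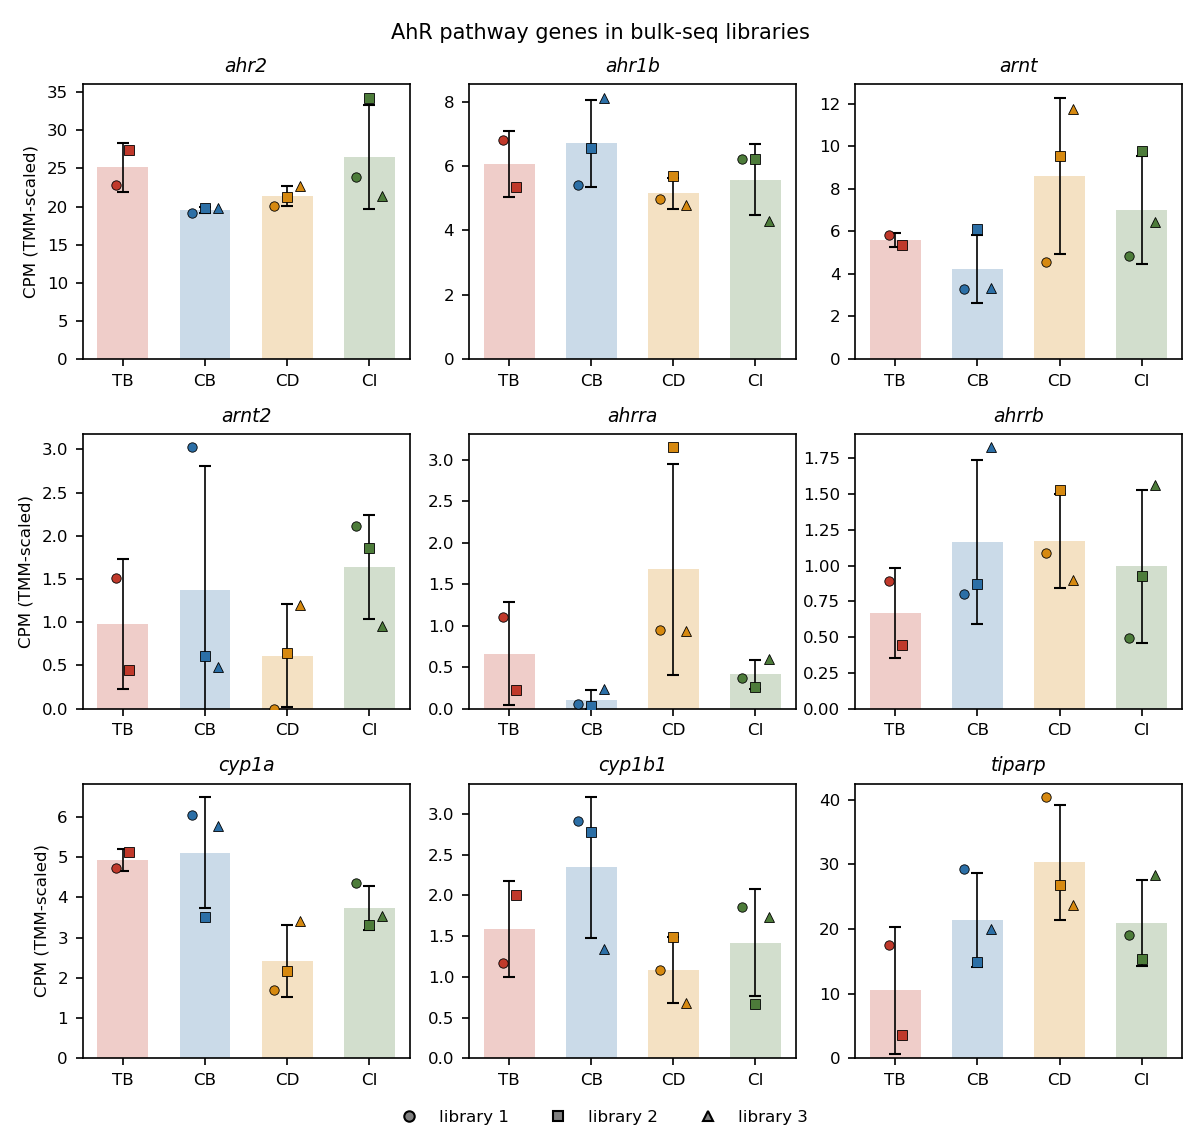
Levels of the 9 matched AhR pathway genes in each bulk library (CPM after TMM scaling within a table; marker shape gives the library number, bars the group mean, error bars the SD, cut at 0; n = 2 for TB and 3 for CB, CD and CI). TB lies above CB without overlap for ahr2, as for 13.8% of all rows tested, and CD above CI for ahrra, as for 13.3%. For the other genes the libraries of the compared groups overlap.

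**Figure D2:**
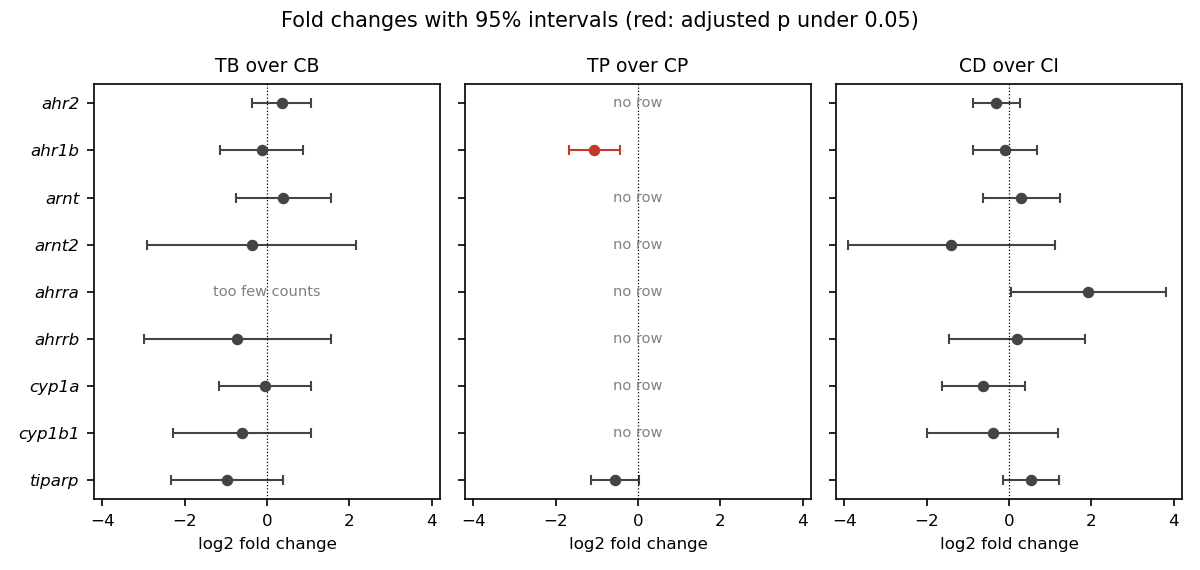
Log2 fold changes of the same genes with 95% intervals from edgeR in TB over CB, TP over CP and CD over CI; genes with no row or too few counts for the test are marked. The interval of ahr1b in TP over CP, -1.67 to -0.45, belongs to the only value with an adjusted p under 0.05.

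Of the receptors, ahr2 was measured at 22.9 and 27.4 CPM in TB libraries 1 and 2, and at 19.1, 19.8 and 19.8 CPM in CB libraries 1, 2 and 3. Both TB libraries lay above all 3 CB libraries, a separation in this direction that 13.8% of all rows tested showed, and ahr2 was 1 of the 8 genes with it. The means were 25.2 ± 3.22 CPM in TB (SD, n = 2) and 19.6 ± 0.412 CPM in CB (SD, n = 3). The log2 fold change was 0.36 (SE 0.32), 1.28-fold with a 95% interval of 0.777 to 2.11, at an adjusted p of 0.706 in edgeR. Counting error alone spanned 22.8 to 32.7 CPM in TB library 2, with 123 counts of ahr2, and 18.4 to 21.3 CPM in CB library 2, with 749 (exact 95% binomial intervals). Without TB library 2 the log2 fold change was 0.28, and without TB library 1 it was 0.48. In this bulk tissue, a change in the share of cells that carry a transcript and a change in its level per cell cannot be told apart, here and in the results that follow.

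Among control testes of the younger fish, ahr2 had 20.1, 21.3 and 22.7 CPM in CD replicates 1, 2 and 3, against 23.8, 34.3 and 21.4 CPM in CI replicates 1, 2 and 3. CI replicate 2, one of the libraries that stood apart, was the highest of all 11 bulk libraries, and the groups overlapped. The log2 fold change was -0.31 (SE 0.25; adjusted p = 0.564 in edgeR), and without CI replicate 2 it was -0.08. Some somatic markers separated these groups: 3 of 6 Sertoli rows and 4 of 6 Leydig rows were called lower in CD. So were 4 of 9 smooth muscle and fibroblast rows and 3 of 9 leukocyte rows, and no somatic row was called higher. No row was called among 5 endothelial and 3 erythrocyte rows, where 2.22% of all rows were called. The Leydig markers summed to 39.8 to 224 CPM in CD libraries and to 3859 to 5591 CPM in CI libraries. The Sertoli markers summed to 216 to 243 CPM in CD libraries and to 1448 to 2310 CPM in CI libraries. Each of the 6 matched markers of either list had counts in both groups. Their part in the levels of AhR pathway genes was not tested.

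The second matched receptor, ahr1b, whose product is one of the duplicated Ahr1 proteins, had 6.80 and 5.35 CPM in TB libraries 1 and 2, against 5.42, 6.56 and 8.13 CPM in CB libraries 1, 2 and 3. The groups overlapped, with means of 6.08 ± 1.03 CPM in TB (SD, n = 2) and 6.71 ± 1.36 CPM in CB (SD, n = 3), and the log2 fold change was -0.13 (SE 0.45; adjusted p = 0.935 in edgeR). It had 4.98, 5.70 and 4.78 CPM in CD replicates 1, 2 and 3, against 6.21, 6.22 and 4.29 CPM in CI replicates 1, 2 and 3. These groups overlapped too, at a log2 fold change of -0.10 (SE 0.35; adjusted p = 0.912 in edgeR). Among the receptors, ahr1b therefore lay between 4.29 and 8.13 CPM in every bulk library.

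In pseudo bulk-seq, ahr1b had 6.64 and 6.42 CPM in TP replicates 1 and 2, against 16.7, 10.7 and 14.3 CPM in CP replicates 1, 2 and 3. Both TP libraries lay below all 3 CP libraries, a separation in this direction that 32.8% of all rows showed. The means were 6.53 ± 0.151 CPM in TP (SD, n = 2) and 13.9 ± 3.02 CPM in CP (SD, n = 3), from 37 to 107 counts per library. The log2 fold change was -1.06 (SE 0.26), so that ahr1b fell to 0.479-fold of the control level with a 95% interval of 0.313 to 0.733, at an adjusted p of 0.0253 in edgeR. The call was lost without CP replicate 3 (adjusted p = 0.0753 in edgeR). Fits without TP replicate 1 or TP replicate 2 left 1 TP library, so only their log2 fold changes, -1.08 and -1.01, are given. Over the 5 libraries left out in turn, log2 fold changes lay between -1.24 and -0.93.

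Late germ cell markers moved with the same comparison. The 4 matched spermatid and sperm genes, which hold 5 rows, summed to 249 to 282 CPM in TP libraries and to 1639 to 3135 CPM in CP libraries. All 5 rows were called lower, where 19.4% of all rows were called lower. The 6 matched spermatocyte genes summed to 1769 to 2172 CPM in TP libraries and to 4031 to 5932 CPM in CP libraries, and 4 of 6 rows were called lower. The 2 matched spermatogonia genes went the other way, at 1421 to 1547 CPM in TP libraries and 865 to 1148 CPM in CP libraries, with no row called. The pseudo bulk-seq counts hold no value under 30, so a gene at 0 could not be seen there. The part of these genes in the level of ahr1b was not tested. In bulk-seq the 7 matched spermatid and sperm genes summed to 756 and 1398 CPM in TB libraries and to 749.9 to 1698 CPM in CB libraries. No row of theirs was called there, where 0% of all rows were called.

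The effect of TCDD on ahr1b was then compared between the methods in 1 fit over the 4388 shared rows. The fit took all 10 libraries as independent. Suspensions divided between the methods could not be matched, as the columns of TB and CB show no sample. The effect in pseudo bulk-seq minus that in bulk-seq was -1.05 log2 units (95% interval -2.08 to -0.01), with an adjusted p of 0.18 in edgeR, where 7% of rows were called. The methods were therefore not shown to differ for ahr1b. Leaving out each of the 10 libraries in turn gave -1.36 to -0.84 for ahr1b. Some of these fits left 1 TB or 1 TP library, so only effect sizes are given.

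**Figure D3:**
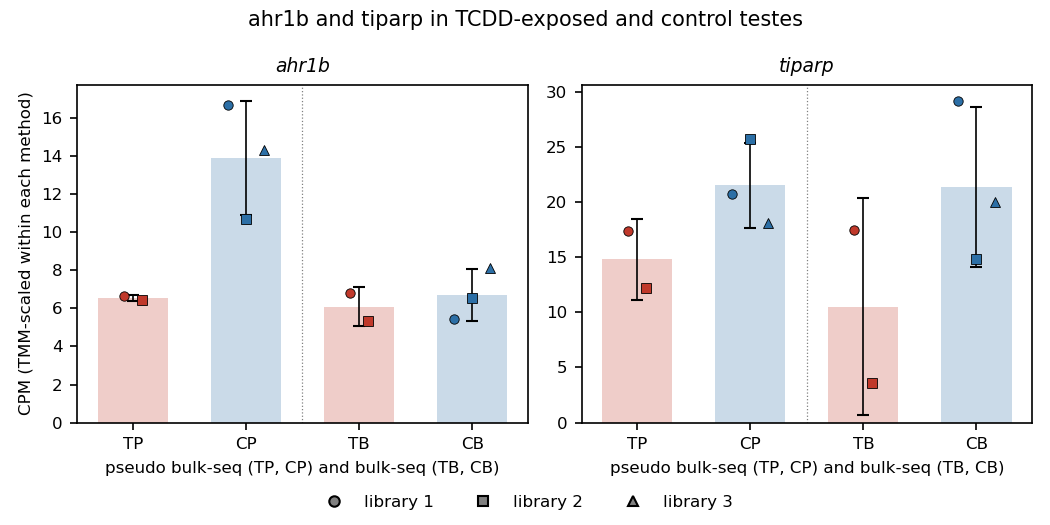
Levels of ahr1b and tiparp in TCDD-exposed and control testes by pseudo bulk-seq (TP, CP) and by bulk-seq (TB, CB), in CPM scaled within each method; marker shape gives the library number, bars the mean and error bars the SD. TP libraries lie below CP libraries for both genes, as for 32.8% of all rows of that table, and TB and CB overlap for both.

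Of the partners, arnt encodes a bHLH-PAS protein that dimerizes with the AhR and with hypoxia-inducible factors. It had 5.84 and 5.35 CPM in TB libraries 1 and 2, against 3.31, 6.09 and 3.32 CPM in CB libraries 1, 2 and 3. CB library 2 lay above both TB libraries, so the groups overlapped. Its log2 fold change was 0.40 (SE 0.51), 1.32-fold with an interval of 0.591 to 2.94, at an adjusted p of 0.798 in edgeR. In dissociated testes of the younger fish, arnt had 4.56, 9.53 and 11.7 CPM in CD replicates 1, 2 and 3, against 4.84, 9.80 and 6.42 CPM in CI replicates 1, 2 and 3. Replicate 1 was the lowest library on both sides, and the log2 fold change was 0.30 (SE 0.42; adjusted p = 0.753 in edgeR).

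The other partner, arnt2, known for its role in the nervous system and in zebrafish development, was at the edge of detection. It had 1.51 and 0.446 CPM in TB libraries 1 and 2, against 3.02, 0.609 and 0.481 CPM in CB libraries 1, 2 and 3. One library in each group, TB library 1 and CB library 1, lay above the rest, and the group ranges overlapped. TB library 2 had 2 counts of arnt2. Its log2 fold change was -0.37 (SE 1.13; adjusted p = 0.926 in edgeR), and it was -1.59 without TB library 1 and turned to 0.21 without TB library 2 and to 0.92 without CB library 1. In CD replicates 1, 2 and 3, arnt2 had 0, 0.638 and 1.2 CPM, against 2.11, 1.85 and 0.958 CPM in CI replicates 1, 2 and 3. No read was counted in CD replicate 1 among 26405924, which allows a level of up to 0.105 CPM (3 counts). The highest CD library lay above the lowest CI library, and the log2 fold change was -1.40 (SE 1.13; adjusted p = 0.554 in edgeR), with -0.81 without CD replicate 1 and -2.35 without CD replicate 3.

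The repressor ahrra, one of the duplicated AhR repressor genes and itself a target of the receptor, had few counts. TB libraries 1 and 2 had 16 counts and 1 count, against 1, 1 and 5 counts in CB libraries 1, 2 and 3, which corresponds to 1.1 and 0.223 CPM in TB and to 0.0570, 0.0265 and 0.241 CPM in CB. TB library 1 lay above the other 4 libraries, TB library 2 lay within the range of CB, and ahrra did not pass the filter on low counts. Tested without that filter, its log2 fold change was 2.66 (SE 1.71; adjusted p = 0.616 in edgeR).

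In the younger fish, ahrra was not called. It had 0.948, 3.15 and 0.939 CPM in CD replicates 1, 2 and 3 (27, 74 and 22 counts), against 0.372, 0.265 and 0.603 CPM in CI replicates 1, 2 and 3 (3, 2 and 17 counts). All 3 CD libraries lay above all 3 CI libraries, a separation in this direction that 13.3% of all rows showed. The opposite separation was shown by 13.1% of all rows, and ahrra was the 1 gene of 9 with separate groups in either direction. The means were 1.68 ± 1.27 CPM in CD (SD, n = 3) and 0.413 ± 0.173 CPM in CI (SD, n = 3). This gave a log2 fold change of 1.92 (SE 0.85), 3.79-fold with an interval of 1.03 to 14.0, at an unadjusted p of 0.0462 and an adjusted p of 0.281 in edgeR. Without CD replicate 2, the highest library, the log2 fold change was 1.11 and the adjusted p 0.675.

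The other repressor, ahrrb, had 0.893 and 0.446 CPM in TB libraries 1 and 2, against 0.799, 0.873 and 1.83 CPM in CB libraries 1, 2 and 3. It had 1.09, 1.53 and 0.896 CPM in CD replicates 1, 2 and 3, against 0.497, 0.927 and 1.56 CPM in CI replicates 1, 2 and 3. The compared groups overlapped in both cases. For TB over CB, ahrrb had a log2 fold change of -0.72 (SE 1.01; adjusted p = 0.817 in edgeR), and of -1.37 without TB library 1. In CD over CI it was 0.19 (SE 0.75; adjusted p = 0.925 in edgeR), and it turned to -0.04 without CD replicate 2 and to -0.11 without CI replicate 1.

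Of the target genes, cyp1a encodes the monooxygenase most widely used as a marker of AhR activation. It had 4.74 and 5.13 CPM in TB libraries 1 and 2, against 6.05, 3.52 and 5.77 CPM in CB libraries 1, 2 and 3. Both TB libraries lay inside the range of CB, with means of 4.94 ± 0.275 CPM in TB (SD, n = 2) and 5.11 ± 1.39 CPM in CB (SD, n = 3). This gave a log2 fold change of -0.05 (SE 0.49), 0.965-fold with an interval of 0.445 to 2.09, at an adjusted p of 0.979 in edgeR. Its sign turned in 3 of the 5 fits that left out a library, with values between -0.22 and 0.09.

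In the younger fish, cyp1a had 1.68, 2.17 and 3.42 CPM in CD replicates 1, 2 and 3, against 4.34, 3.31 and 3.55 CPM in CI replicates 1, 2 and 3. CD replicate 3 lay within the range of CI, so the groups overlapped, although each CD library was below the CI library of the same number. Its log2 fold change was -0.62 (SE 0.46), 0.650-fold with an interval of 0.322 to 1.31, at an adjusted p of 0.515 in edgeR. Genes listed as liver markers, liver being a tissue in which cyp1a is strongly inducible, were counted as a sum in every bulk library. None of the 7 matched genes was at 0 in all libraries of a group. Their sums were 1022 and 722 CPM in TB libraries 1 and 2 and 587 to 709 CPM in CB libraries. They summed to 327 to 357 CPM in CD libraries and to 394 to 446 CPM in CI libraries. In both comparisons the liver sums did not overlap. Of all single rows, 13.8% separated upward in TB over CB and 13.1% downward in CD over CI. All 7 liver rows were positive in TB over CB, 5 at an unadjusted p under 0.05 in edgeR, against 8.88% of all rows. All 7 were negative in CD over CI, 2 at that level, against 17.3% of all rows. No liver gene was called in either, where 0% and 2.22% of all rows were called. Neither the source of these counts nor its part in the level of cyp1a was tested.

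The related monooxygenase gene cyp1b1 had 1.17 and 2.01 CPM in TB libraries 1 and 2, against 2.91, 2.78 and 1.35 CPM in CB libraries 1, 2 and 3. The lowest library was TB library 1, and TB library 2 lay within the range of CB. Counts were 17 and 9 in TB libraries 1 and 2 and 5 in CI replicate 2, which limits what can be seen. For cyp1b1, the log2 fold change was -0.61 (SE 0.74; adjusted p = 0.785 in edgeR). In CD replicates 1, 2 and 3 it had 1.09, 1.49 and 0.683 CPM, against 1.86, 0.662 and 1.74 CPM in CI replicates 1, 2 and 3. The 3 CD libraries lay inside the range of CI, at a log2 fold change of -0.40 (SE 0.72; adjusted p = 0.813 in edgeR).

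The target tiparp encodes a mono-ADP-ribosyltransferase that is induced by the AhR and feeds back on it. It had 17.5 and 3.57 CPM in TB libraries 1 and 2 (254 and 16 counts), against 29.2, 14.9 and 20.0 CPM in CB libraries 1, 2 and 3. TB library 1 lay within the range of CB and TB library 2 lay far below it, outside counting error (2.04 to 5.79 CPM, exact 95% binomial interval). The means were 10.5 ± 9.82 CPM in TB (SD, n = 2) and 21.4 ± 7.27 CPM in CB (SD, n = 3). For tiparp, the log2 fold change was -0.97 (SE 0.61), 0.510-fold with an interval of 0.197 to 1.32, at an adjusted p of 0.598 in edgeR. Without TB library 2 it was -0.23, and without TB library 1 it was -2.58. The size of the difference thus depended on which TB library was kept. These fits left 1 TB library, so only their effect sizes are given.

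Pseudo bulk-seq gave tiparp 17.4 and 12.2 CPM in TP replicates 1 and 2, against 20.8, 25.7 and 18.1 CPM in CP replicates 1, 2 and 3. Both TP libraries lay below all 3 CP libraries, as in 32.8% of all rows, TP replicate 2 being the lower one. Its log2 fold change was -0.56 (SE 0.25), 0.680-fold with an interval of 0.451 to 1.02, at an adjusted p of 0.129 in edgeR. The effect in pseudo bulk-seq minus that in bulk-seq was 0.30 log2 units (95% interval -1.27 to 1.87, adjusted p = 0.814 in edgeR). This difference depended on single bulk libraries. It was 1.91 without TB library 1, -0.54 without TB library 2 and -0.15 without CB library 1 (adjusted p = 0.922 in edgeR). The fits without TB library 1 or TB library 2 left 1 TB library, so only their effect sizes are given. Among control testes of the younger fish, tiparp had 40.4, 26.8 and 23.7 CPM in CD replicates 1, 2 and 3, against 19.0, 15.4 and 28.3 CPM in CI replicates 1, 2 and 3. CD replicate 1 was the highest of the 11 bulk libraries, CI replicate 3 lay above the other 2 CD libraries, and the log2 fold change was 0.53 (SE 0.30; adjusted p = 0.397 in edgeR).

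Across the 4 bulk groups, the order of the mean levels differed between genes, and few neighbours in it were clear of each other. Of 27 neighbouring pairs of groups, 3 were separated by more than their SDs: ahr2 between CD (21.4 ± 1.32 CPM, SD, n = 3) and CB, cyp1a between TB and CI (3.73 ± 0.541 CPM, SD, n = 3), and ahrra between CI and CB (0.108 ± 0.116 CPM, SD, n = 3). All 3 pairs set fish of 1.5 years beside fish of 1 year, from tables scaled separately. TB beside CI differs also in TCDD, dissociation and storage, and CI beside CB in dissociation and storage. Age, scaling and these factors cannot be told apart. CD had the highest mean of the 4 groups for arnt, ahrra, ahrrb and tiparp and the lowest for ahr1b, arnt2, cyp1a and cyp1b1, although no gene was called in CD over CI.

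Genes around the pathway were described through 6 lists that hold 108 symbols, of which 79 had a row in the bulk-seq tables and 71 were tested there. None of the 71 was called by edgeR in TB over CB or in CD over CI. For TP over CP, 29 were tested, of which 8 were called higher and 2 lower, against 28.1% of all rows called, 8.69% higher and 19.4% lower. The median log2 fold change of the tested genes was 0.20 in TP over CP, where that of all rows was 0.03. In TB over CB it was 0.01, where that of all rows was -0.05.

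The cytosolic AhR complex (hsp90 chaperones, p23 proteins and aip) had 6 of 6 genes tested in each comparison. In TP over CP, 1 of the 6 was called, where 28.1% of all rows were called. The 1 gene called in TP over CP was ptges3b, a p23 co-chaperone gene, at 338.7 ± 11.0 CPM in TP (SD, n = 2) and 234 ± 25.3 CPM in CP (SD, n = 3), a log2 fold change of 0.53 (SE 0.16; adjusted p = 0.0458 in edgeR). It averaged 121 ± 11.5 CPM in CD (SD, n = 3) and 73.8 ± 10.6 CPM in CI (SD, n = 3), at a log2 fold change of 0.71 and an adjusted p of 0.102. The gene of the complex with the lowest p in TB over CB was hsp90aa1.1, an inducible hsp90 gene, at 54.1 and 74.3 CPM in TB libraries against 36.1 to 51.9 CPM in CB libraries (log2 fold change 0.59, adjusted p = 0.564 in edgeR). The co-chaperone aip, which holds the receptor in the cytosol, averaged 45.3 ± 12.5 CPM in TB (SD, n = 2) and 44.9 ± 5.08 CPM in CB (SD, n = 3).

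Of 27 further AhR target genes, 18 were tested in bulk-seq and 4 in pseudo bulk-seq. Of the 4, 1 was called higher and 1 lower in TP over CP, where 8.69% and 19.4% of all rows were. In TB over CB, 9 of the 18 had positive and 9 negative log2 fold changes, with a median of 0.00, and none was called. The lowest p belonged to ptgs2b, a cyclooxygenase gene, at 1.92 and 0.669 CPM in TB libraries 1 and 2 against 3.71 to 4.62 CPM in CB libraries (log2 fold change -1.59, SE 0.65, adjusted p = 0.553 in edgeR). The flavoenzyme gene nqo1 averaged 31.3 ± 9.67 CPM in TB (SD, n = 2) and 28.5 ± 9.93 CPM in CB (SD, n = 3), a log2 fold change of 0.12. In TP over CP, ccng2, a cyclin G gene, was called lower at 63.0 and 77.3 CPM in TP libraries against 118 to 167 CPM in CP libraries (log2 fold change -1.06, SE 0.22, adjusted p = 0.0133 in edgeR). In the same comparison il1b, a cytokine gene, was called higher at 42.3 and 46.0 CPM in TP libraries against 21.1 to 29.9 CPM in CP libraries (log2 fold change 0.74, SE 0.21, adjusted p = 0.0368 in edgeR).

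The cyp1 family holds further genes, of which cyp1c1 and cyp1c2 had few counts. In CD over CI, cyp1c2 had the lowest p of the target list, with 0 to 0.256 CPM in CD libraries (6 counts in all) against 0.621 to 1.72 CPM in CI libraries (42 counts in all), at a log2 fold change of -3.57 (SE 1.41; adjusted p = 0.234 in edgeR). Its neighbour in the family, cyp1c1, had 0 to 0.468 CPM in CD libraries against 1.14 to 1.99 CPM in CI libraries (log2 fold change -2.39, adjusted p = 0.293 in edgeR). All 3 CD libraries lay below all 3 CI libraries for both genes, a separation in this direction that 13.1% of all rows showed, and neither gene was called. In TB over CB, cyp1c1 had 16 counts in TB and 38 in CB and cyp1c2 had 3 in TB and 10 in CB, and cyp1d1 averaged 6.44 ± 6.97 CPM in TB (SD, n = 2) and 6.30 ± 2.42 CPM in CB (SD, n = 3). The genes nqo1, cyp1c1, cyp1d1 and aip were singled out after their values had been seen.

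The bHLH-PAS relatives include the hypoxia-inducible factor and circadian clock genes that share Arnt-type partners. Of their 30 symbols, which count older and newer names of some genes apart, 18 were tested in bulk-seq and 2 in pseudo bulk-seq. Of the 2, 1 was called higher in TP over CP, where 8.69% of all rows were. In TB over CB, 12 of the 18 log2 fold changes were positive, and their median was 0.42, against -0.05 over all rows. Of the 18, 4 had an unadjusted p under 0.05 in edgeR, against 8.88% of all rows. None was called, where 0% of all rows were called. The lowest p belonged to hif1aa, a hypoxia-inducible factor gene, at 4.47 and 10.3 CPM in TB libraries against 0.962 to 2.40 CPM in CB libraries (log2 fold change 1.94, SE 0.63, adjusted p = 0.553 in edgeR). The other 3 of the 4, named after their values had been seen, were hif1ab (229 and 265 CPM in TB libraries, 133 to 152 CPM in CB libraries), epas1b (98.1 and 154 CPM in TB libraries, 57.9 to 71.4 CPM in CB libraries) and npas2 (4.24 and 8.18 CPM in TB libraries, 0.674 to 2.74 CPM in CB libraries). For these 4 genes TB lay above CB without overlap. They were picked by p in this same comparison, so the 13.8% of all rows with this separation is no fair reference for them. Of the other relatives tested, hif1al and clockb lay apart in the same direction and sim2 in the opposite one. In CD over CI the lowest p was that of epas1b, an endothelial hypoxia-inducible factor gene, at 21.2 to 30.1 CPM in CD libraries against 49.4 to 149.9 CPM in CI libraries (log2 fold change -1.66, SE 0.40, adjusted p = 0.0698 in edgeR). The period gene per1b of the circadian clock was called higher in TP over CP, at 54.9 and 57.4 CPM in TP libraries against 28.1 to 36.1 CPM in CP libraries (log2 fold change 0.76, SE 0.19, adjusted p = 0.0275 in edgeR).

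Of the coregulators, 10 of 17 genes were tested in bulk-seq and 6 in pseudo bulk-seq. Of the 6, 1 was called in TP over CP, where 28.1% of all rows were. The retinoblastoma gene rb1 was the 1 called in TP over CP, at 36.6 ± 2.47 CPM in TP (SD, n = 2) and 24.3 ± 0.251 CPM in CP (SD, n = 3), a log2 fold change of 0.59 (adjusted p = 0.0441 in edgeR). The chromatin remodeler gene smarca4a had the lowest p in TB over CB, at 231 and 612 CPM in TB libraries against 245 to 279 CPM in CB libraries (log2 fold change 0.68, adjusted p = 0.577 in edgeR). The ubiquitin-like modifier gene nedd8 had it in CD over CI, at 279 to 307 CPM in CD libraries against 302 to 496 CPM in CI libraries (log2 fold change -0.54, adjusted p = 0.232 in edgeR).

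Nrf2, the regulator of the antioxidant response, is linked to the AhR. Its targets had 10 of 15 genes tested in bulk-seq and 5 in pseudo bulk-seq. Of the 5, 2 were called higher in TP over CP, where 8.69% of all rows were. In TP over CP, txnrd3, a thioredoxin reductase gene, was called higher at 158 and 172 CPM in TP libraries against 70.5 to 100.3 CPM in CP libraries (log2 fold change 0.94, SE 0.19, adjusted p = 0.0130 in edgeR). The glutathione synthesis gene gclc was called higher in the same comparison, at 57.6 and 60.3 CPM in TP libraries against 24.0 to 37.7 CPM in CP libraries (log2 fold change 0.88, SE 0.23, adjusted p = 0.0290 in edgeR). Its partner subunit gclm had the lowest p of the list in both bulk comparisons. It had 7.14 and 8.52 CPM in TB libraries against 12.7 to 14.7 CPM in CB libraries (log2 fold change -0.79, adjusted p = 0.560 in edgeR). In the younger fish it had 15.5 to 21.4 CPM in CD libraries against 9.80 to 11.6 CPM in CI libraries (log2 fold change 0.86, adjusted p = 0.137 in edgeR).

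The PARP family, to which tiparp belongs, had 9 of 13 genes tested in bulk-seq and 6 in pseudo bulk-seq. Of the 6, 2 were called higher and 1 lower in TP over CP, where 8.69% and 19.4% of all rows were. The DNA damage sensors parp1 and parp3 were called higher and parp16, a gene of the endoplasmic reticulum, was called lower in that comparison. The log2 fold changes were 0.65 for parp1 (327 ± 28.7 CPM in TP, SD, n = 2, and 208 ± 38.3 CPM in CP, SD, n = 3), 0.66 for parp3 and -0.70 for parp16, at adjusted p of 0.0452, 0.0450 and 0.0494 in edgeR. In TB over CB the lowest p was that of parp12a, at 24.0 and 26.8 CPM in TB libraries against 34.3 to 50.3 CPM in CB libraries (log2 fold change -0.74, adjusted p = 0.553 in edgeR). In CD over CI it was that of parp12b, at 16.1 to 25.7 CPM in CD libraries against 25.6 to 33.9 CPM in CI libraries (log2 fold change -0.53, adjusted p = 0.324 in edgeR).

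**Figure D4:**
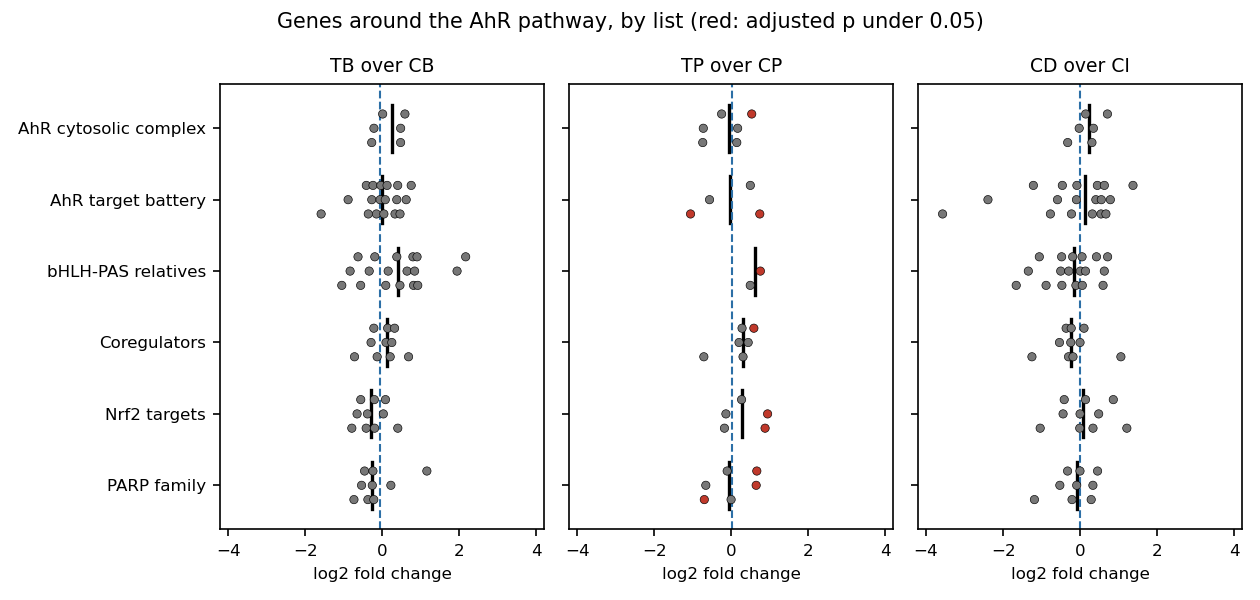
Log2 fold changes of the tested genes of the 6 lists in TB over CB, TP over CP and CD over CI; each point is a row, red points have an adjusted p under 0.05 in edgeR, black bars mark the list median and the dashed line the median of all rows tested. Of 29 genes tested in TP over CP, 8 were called higher and 2 lower, where 8.69% of all rows were called higher and 19.4% lower; none of 71 was called in TB over CB (0% of all rows) or CD over CI (2.22% of all rows).

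The rows whose log2 CPM ran most like that of a pathway gene over the 11 bulk libraries were taken from 12547 rows that passed the filter in both tables. The libraries share fish and depth differences, and the rows were picked for their high r among many, so the correlations are descriptions. The rows most like ahr2 were prnprs3 (Pearson r = 0.957, Spearman rho = 0.918), mob2a (r = 0.940, rho = 0.927) and atp6v0e1 (r = 0.925, rho = 0.882). Without TB library 2 and CI replicate 2, the 2 libraries farthest from the median of ahr2, r was 0.807 for prnprs3, 0.786 for mob2a and 0.741 for atp6v0e1. For arnt they were zgc:158258 (r = 0.884, rho = 0.918), frzb (r = 0.854, rho = 0.864) and lasp1 (r = 0.853, rho = 0.882), with r between 0.820 and 0.884 without CB library 3 and CD replicate 3.

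Of the target genes, cyp1a ran most like parp6a (r = 0.880, rho = 0.782), drc1 (r = 0.869, rho = 0.873) and cyp7a1 (r = 0.863, rho = 0.882). Without CB library 1 and CD replicate 1, r was 0.794 for parp6a, 0.785 for drc1 and 0.726 for cyp7a1. For cyp1b1 they were polr3g (r = 0.925, rho = 0.9), slc13a5a (r = 0.901, rho = 0.845) and nln (r = 0.892, rho = 0.836), with r between 0.715 and 0.828 without CD replicate 3 and CI replicate 2. For tiparp they were mycla (r = 0.967, rho = 0.818), kat5a (r = 0.963, rho = 0.873) and dnajb9a (r = 0.963, rho = 0.891), with r of 0.826, 0.842 and 0.713 without CD replicate 1 and TB library 2.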

How the data were processed

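RNA was measured in 16 libraries of zebrafish testes. Bulk-seq counts came from 3′ mRNA libraries aligned by the authors to GRCz11, and pseudo bulk-seq counts from Cell Ranger 6.01 and Seurat 4.0.4 (per the submitters' processing notes) summed over cells; the reference of the pseudo bulk-seq counts is named differently in the methods and in the labels. The authors deposited raw counts per RefSeq mRNA accession in 1 table per comparison; their columns of fold changes, p-values and levels were not used, nor were cluster tables and the tables of pseudo bulk-seq against bulk-seq. No per-sample column of the tables used was left out (0 columns). In the table of TB and CB the count rows are reversed against the accessions, and they were turned back: row totals correlated with those of CD and CI at a Spearman rho of 0.979 over 14792 accessions after reversal and at -0.979 as deposited. The table of TP and CP holds no value under 30 counts, and 2 of the 10 AhR pathway genes have a row there; why the others have none was not tested. Accessions were named from RefSeq annotation of GRCz12tu, which matched 97.6% of rows in bulk-seq and 85.4% in pseudo bulk-seq.

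Rows passing filterByExpr were scaled by TMM and tested with edgeR 4.0.16 in R 4.3.3 (quasi-likelihood test, robust, group means, Benjamini-Hochberg adjustment over all rows tested), and a row was called at an adjusted p under 0.05. The scripts were tested on simulated data. Intervals on counts are exact binomial and cover counting error only, as do floors of 3 counts, PCR copies of 1 molecule being counted more than 1 time where no identifiers were used. Likeness used log2 CPM with a prior count of 2. The methods pair CD and CI as testes of the same fish; deviations of same-numbered libraries correlated at 0.34, 0.06 and -0.08, and a block on the number changed no call of a pathway gene. Alternatives were RLE factors, DESeq2 1.42.0, no filter, the block for CD over CI and TP over CP, leaving out each library (for the difference between methods chosen after seeing the data), joint scaling and Spearman correlation. The genes, their lists and the rule for naming others (every called gene of a list, at most 5, otherwise the one of lowest p, plus the 3 most correlated rows) were chosen with earlier results of these data known.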

Additional observations from a re-analysis of the deposited data

How the results depend on the processing

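Of 64 fold changes of pathway genes in TB over CB under the alternatives, 57 kept their direction and 7 reversed, all of them without a call. Leaving out libraries in turn gave ranges of -0.33 to 0.079 for ahr1b, -0.22 to 0.086 for cyp1a and -1.59 to 0.92 for arnt2 in TB over CB, and of -0.11 to 0.72 for ahrrb in CD over CI. In TP over CP, 0 to 1 pathway gene was called when a library was left out, and under RLE factors, DESeq2, no filter and the block, ahr1b stayed called. In the difference between methods, tiparp ranged between -0.54 and 1.91 when a library was left out, an alternative added after the data were seen. Both ends of that range came from fits that left 1 TB library.

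The block on the replicate number changed no call of a pathway gene in CD over CI or TP over CP, where it gave ahr1b a log2 fold change of -1.0 (adjusted p = 0.00668 in edgeR). Same-numbered libraries of TP and CP correlated in their deviations at 0.26 and 0.42, and TP replicate 1 with CP replicate 3 at 0.22. With 2 TP libraries, the deviations of TP mirror each other, so these values are not independent. A caption of the study calls these testes paired, and nothing states that the number marks a pair. No paired analysis was possible for TB over CB or for suspensions divided between methods because the columns of TB and CB carry no sample of their own, and the planned fits with these blocks or without whole suspensions were not run.

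The number of rows called moved more, and fits without a TB or TP library left 1 library in that group. For TB over CB it was 0, with 1149 rows at an unadjusted p under 0.05, 11 rows called by DESeq2, and 0 to 692 called when a library was left out, the highest without TB library 1. For TP over CP it was 1926, and 397 to 2853 when a library was left out, the lowest without TP replicate 2. For CD over CI it was 283, 781 by DESeq2 and 105 to 333 when a library was left out. For the difference between methods it was 307, 633 by DESeq2 and 1 to 1542 when a library was left out, the lowest without TP replicate 2. Scaling all bulk libraries together moved the mean of ahr2 in CB to 19.2 CPM, more than its SD, and each other group mean of a pathway gene by less than its own SD. Of the 3 rows most like each gene, Spearman ranking kept 1 for ahr2 and none for cyp1a or tiparp. The cause of these changes was not tested. The genes arnt2, ahrra and ahrrb had 0 to 74 counts per bulk library and cyp1b1 had 5 to 105, which limits what can be seen of them.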
